A study of Mus musculus with 96 samples.

Results

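The cortical thick ascending limb (CTAL), the last part of the loop of Henle, was compared with the distal convoluted tubule (DCT), the segment that follows it in the kidney cortex. The samples were chosen by their labels, as every piece labelled CTAL or DCT. There were 14 of them, of 93 tubule and glomerulus samples in the series. The CTAL was represented by 8 pieces from 5 mice and the DCT by 6 pieces from 3 mice. All mice were male C57BL/6 animals of 6 to 8 weeks, fed normal chow with water at will, and the labels name no transgene and no agent for either group. The tubules were microdissected and no sort is named, so each piece is a stretch of tubule wall with whatever cells lay in it or on it. Polyadenylated RNA was amplified with an ultra-low input kit and sequenced. The series text gives 53 mice, and there were 53 combinations of mouse number and segment. Equal numbers in the CTAL and the DCT were therefore taken as different animals. Levels are given as TPM, an abundance corrected for transcript length whose sum is equal in all samples. Pieces of 1 mouse were averaged, and values below are means ± SD over 5 CTAL mice and 3 DCT mice unless stated otherwise.

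Both segments reabsorb sodium chloride without letting water follow, and they do it with different members of 1 transporter family. The thick limb uses the furosemide-sensitive sodium, potassium and chloride cotransporter NKCC2, encoded by Slc12a1, and its lumen-positive voltage drives calcium and magnesium between the cells through claudins. The DCT uses the thiazide-sensitive sodium chloride cotransporter NCC, encoded by Slc12a3, which is switched by the WNK and SPAK kinases, and it takes up magnesium and calcium through the cells by way of channels, binding proteins and basolateral exporters. Loss of NKCC2 causes Bartter syndrome and loss of NCC causes Gitelman syndrome.

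The promoters of the 2 cotransporter genes are shown because these genes define the comparison. They are the 250 bases before the transcription start, from RefSeq on GRCm38.p6, both on the plus strand, with capitals at matches to the motifs searched. The first is at chr2:125152350-125152599 and the second at chr8:94328958-94329207.
Slc12a1: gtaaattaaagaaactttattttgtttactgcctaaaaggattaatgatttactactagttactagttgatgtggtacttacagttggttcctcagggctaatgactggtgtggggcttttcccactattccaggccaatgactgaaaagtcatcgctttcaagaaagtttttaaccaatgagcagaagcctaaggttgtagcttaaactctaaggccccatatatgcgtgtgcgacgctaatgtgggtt
Slc12a3: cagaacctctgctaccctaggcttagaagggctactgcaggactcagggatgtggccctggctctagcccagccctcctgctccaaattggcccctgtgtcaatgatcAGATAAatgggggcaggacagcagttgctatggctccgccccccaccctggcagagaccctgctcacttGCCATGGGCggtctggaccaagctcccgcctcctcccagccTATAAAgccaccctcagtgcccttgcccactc
The 5 motifs searched on both strands were the TATA box (TATAAA), the GATA motif (AGATAA), the homeodomain motif (TAATTA), the AP-2 motif (GCCNNNGGC) and a nuclear receptor motif (AAGGTCA), and the Slc12a1 window held none of them. The Slc12a3 window held the GATA and AP-2 motifs and a TATA box starting at position -32 from the start. Among 32851 promoters of the same length, 12.4% held the TATA box, 9.99% the GATA motif and 13.7% the AP-2 motif. A TATA box was in 0 of the 11 matched promoters of the 15 leading CTAL genes given below, and in 3 of the 12 of the leading DCT genes, those of Slc12a3, Trpv5 and Slc26a4. A match is a run of letters and not a measured site.

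The labels were first set against the cotransporter genes. Slc12a1 (ENSMUSG00000027202) stood at 5295, 5971, 5796, 6067 and 7548 TPM in CTAL mice 1 to 5 and at 72.3, 19.1 and 1.29 TPM in DCT mice 1 to 3. Slc12a3 (ENSMUSG00000031766) stood at 5892, 5528 and 5925 TPM in the DCT mice and between 0.16 and 0.415 TPM in the CTAL mice. The groups did not overlap for either gene, and both labels were met. On the log2(TPM + 1) scale the CTAL minus DCT difference was 9.21 for Slc12a1 (SE 0.62, adjusted p 4.03e-16 by limma) and -12.12 for Slc12a3 (SE 0.32, adjusted p 1.1e-30 by limma).

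Some DCT pieces stood apart. Slc12a1 was at 63.0 and 81.6 TPM in the 2 pieces of DCT mouse 1, at 37.9 and 0.23 TPM in those of mouse 2, and at 2.03 and 0.55 TPM in those of mouse 3. The claudin gene Cldn16 followed it, at 6.44 and 6.47, 5.28 and 0, and 0 and 0.26 TPM in the same pieces. Piece b of DCT mouse 1 also held the proximal phosphate transporter transcript Slc34a1 at 290 TPM, against 0.62 to 25.6 TPM in the other 5 DCT pieces. Results were therefore also computed without the 3 DCT pieces with Slc12a1 above 30 TPM, and without piece b of mouse 1. The former leaves no piece of DCT mouse 1, so only mice 2 and 3 remain. The former setting gave a log2 difference of 11.86 for Slc12a1 in place of 9.21, which stayed called. Since the pieces were left out for the level of that gene, its larger difference follows from the choice. Between 12798 and 13229 genes per CTAL piece and between 12581 and 13148 per DCT piece reached 1 TPM. Across genes, which are not replicates, Pearson's r of log2(TPM + 1) was 0.988 to 0.991 between CTAL mice, 0.985 to 0.992 between DCT mice and 0.957 to 0.966 between the segments. TPM keep no read depth, so depth is unknown and no counting interval is given.

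**Figure D1:**
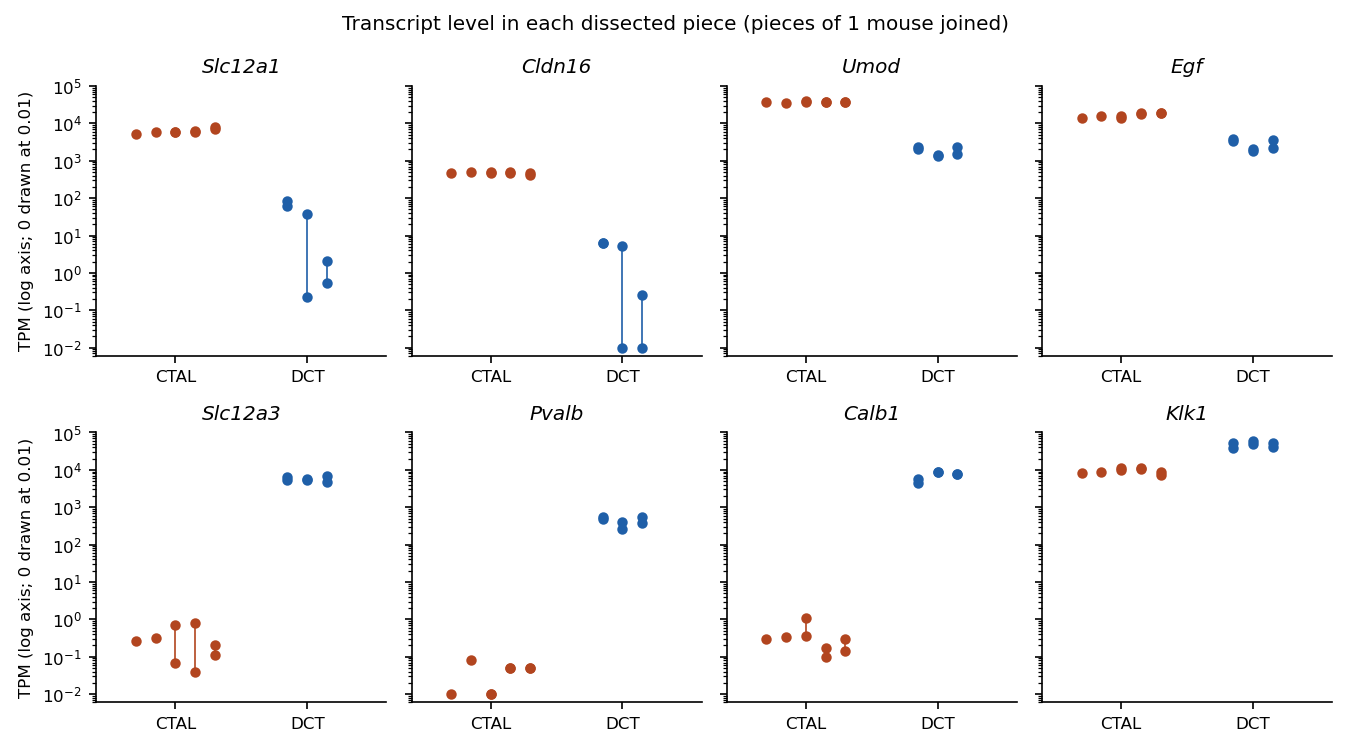
TPM of 8 genes in each dissected piece of CTAL (red, 5 mice) and DCT (blue, 3 mice) on a log axis, with the pieces of 1 mouse joined by a line and values of 0 drawn at 0.01. Slc12a1 and Cldn16 spread from near 0 to 81.6 and 6.47 TPM among the DCT pieces, whereas Umod and Egf were at 1337 TPM or more in every one of them.

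A gene was called where limma gave an adjusted p under 0.05 and the segments differed by 1 log2 unit or more. Of 33793 genes tested, 1470 were called (4.35%), 791 higher in the CTAL (2.34%) and 679 higher in the DCT (2.01%). Among the 8428 genes with a mean of at least 10 TPM in either segment, 927 (11.0%) were called, 504 (5.98%) higher in the CTAL and 423 (5.02%) higher in the DCT. The mice of the segments did not overlap for 773 of the 791 genes and 677 of the 679 genes, against 22.1% of all genes tested and 51.2% of those at 10 TPM. Very large differences were fewer in the CTAL direction, where 22 genes passed 5 log2 units, than in the DCT direction, where 43 did. The median log2 difference of all genes tested was 0.01, and that of the genes at 10 TPM was 0.12. After median ratio rescaling, which removes such an offset, 1498 genes were called and the share of called genes that were higher in the CTAL was 48.3% in place of 53.8%. The p-values rest on the spread between mice within all 15 groups of the series, not within the CTAL and DCT alone. That spread includes the spread of dissection. Counts in the gene lists below are to be read beside these shares and as a description only. Their members were chosen with results of these data known.

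**Figure D2:**
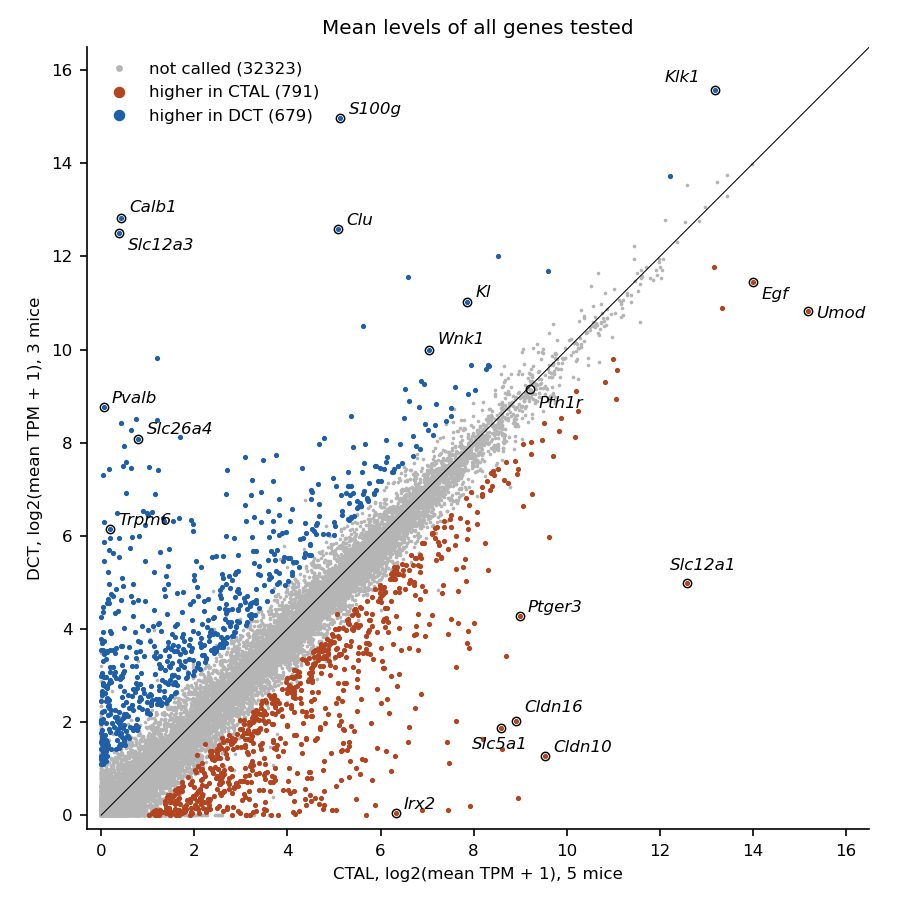
Mean level in the DCT (3 mice) against mean level in the CTAL (5 mice) for the 33793 genes tested, as log2(mean TPM + 1), with called genes in red (higher in CTAL, 791) and blue (higher in DCT, 679), and the line of equal levels. Circles mark genes described in the text. Slc12a3, Calb1 and Pvalb lie at the left edge, Cldn10 and Irx2 near the bottom, and Pth1r on the line.

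The 15 largest differences in the CTAL direction, among called genes with at least 10 TPM, were those of Slc12a1, Eprn, Cldn10, Tmem207, Cldn16, Cldn19, Nccrp1, Slc5a1, Pcsk6, Slc9a3, Irx2, Egfl6, Sim2, Pla1a and Slc4a11. They comprise 3 claudins, 4 membrane carriers and 2 transcription factors. Eprn, a long noncoding RNA gene, was at 450 to 538 TPM in the 5 CTAL mice and at 0.375, 0.105 and 0.405 TPM in the DCT mice. Tmem207, a small membrane protein gene, was at 217 to 294 TPM against 0.37, 0.065 and 0 TPM. Nccrp1 reached 173 ± 25.6 TPM in the CTAL and 803 ± 139 TPM in the medullary thick limb (MTAL, 3 mice). Egfl6, which encodes a secreted protein with EGF repeats, was at 171 ± 24.8 against 1.98 ± 0.61 TPM.

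In the DCT direction the 15 were Calb1, Slc12a3, S100g, Pvalb, Rhcg, Scnn1g, Rhbg, Scnn1b, Clu, Lhx1os, Cyp2j11, Slc26a4, Slc8a1, Trpv5 and Atp6v1g3. Of these, 5 take part in calcium transport or binding, 2 are subunits of the epithelial sodium channel, and Rhcg, Rhbg, Slc26a4 and Atp6v1g3 encode ammonia carriers, the exchanger pendrin and a proton pump subunit of intercalated cells. Clu, the gene of the secreted chaperone clusterin, was at 5370, 7732 and 5344 TPM in the DCT mice and at 28.4 to 41.1 TPM in the CTAL mice. Cyp2j11, a cytochrome P450 gene whose close copies can share reads, was at 356 ± 24.3 against 1.3 ± 0.682 TPM. Lhx1os stood at 244 ± 30 against 0.396 ± 0.229 TPM. By its name it lies opposite Lhx1, and since strand handling is not given in the sources used here, reads of the pair cannot be told apart. All 30 genes kept their call under each of the 25 alternative settings.

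The list of sodium chloride entry and its kinases had 20 tested members, of which 2 were higher in the CTAL and 3 in the DCT, with a median difference of -0.003. Beside the cotransporters themselves, the called genes were Ppp1r1a in the CTAL and Wnk1 and Klhl3 in the DCT. Wnk1, the gene of a kinase upstream of NCC that in the DCT is known for a short kidney form, was at 1157, 958 and 922 TPM in the DCT mice and at 94.2 to 155 TPM in the CTAL mice. No mouse of one segment reached the range of the other (CTAL minus DCT -2.96, SE 0.22, adjusted p 7.02e-15 by limma). Gene-level TPM do not separate the short form from the full kinase. Klhl3 encodes the adaptor that delivers WNK kinases to the Cul3 ubiquitin ligase. It was at 29.9, 24.9 and 24.6 TPM in the DCT and at 1.74 to 2.46 TPM in the CTAL (difference -3.16, SE 0.25, adjusted p 6.79e-14 by limma). Ppp1r1a, an inhibitor of protein phosphatase 1, was at 2024 ± 125 TPM in the CTAL and 892 ± 65.5 TPM in the DCT (1.19, SE 0.37, adjusted p 0.0302 by limma). Its call was lost without CTAL mouse 2 or 3 (adjusted p 0.0592 and 0.0532 by limma), without CTAL mouse 4 (0.050), and without DCT mouse 1, 2 or 3 (0.0678, 0.127 and 0.118).

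The remaining switches of the pathway were not called. Wnk4 was at 409 ± 59.9 TPM in the CTAL and 500 ± 8.94 TPM in the DCT, and Stk39, the gene of SPAK, at 98.4 ± 9.11 and 79.1 ± 5.86 TPM. Oxsr1, which encodes the related kinase OSR1, was at 10.7 ± 1.02 and 8.74 ± 0.29 TPM, and Cul3 at 102 ± 8.33 and 131 ± 7.42 TPM. Sgk1, an aldosterone-induced kinase gene, was at 16 to 35.9 TPM in the CTAL mice and 79.5, 73.2 and 68.0 TPM in the DCT mice. Those ranges do not overlap, but the difference of -1.44 (SE 0.51) had an adjusted p of 0.076 by limma. It was called under 5 of the 25 alternatives, among them the fit of CTAL and DCT alone (adjusted p 0.00879) and the one with array weights (adjusted p 0.000889).

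On the basolateral side, 2 of 12 chloride exit genes were called, both higher in the CTAL (median difference 0.18). Bsnd, which encodes the chloride channel subunit barttin, was not called, at 485 ± 65.5 and 339 ± 8.46 TPM (adjusted p 0.154 by limma). The potassium chloride cotransporter gene Slc12a4 was higher in the CTAL, at 42.2 ± 3.85 against 15.6 ± 1.95 TPM (1.39, SE 0.23, adjusted p 1.03e-05 by limma).

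Of 23 potassium channel genes tested, 1 was higher in the CTAL and 2 in the DCT (median -0.0003). Kcnt1, a sodium-activated channel gene, was at 26.2 ± 10.9 TPM in the CTAL and at most 0.175 TPM in a DCT mouse (4.53, SE 0.26, adjusted p 1.33e-18 by limma). Kcnq1 and its subunit Kcne1 were higher in the DCT, at 180 ± 7.97 against 58.8 ± 6.28 TPM and at 27.8 ± 15.2 against 0.25 ± 0.12 TPM. The apical channel gene Kcnj1, which returns potassium to the lumen for NKCC2, was not called, at 1071 to 1411 TPM in the CTAL and 1821, 1878 and 1838 TPM in the DCT (adjusted p 0.247 by limma). The basolateral channel gene Kcnj16 was at 392 ± 34.8 and 414 ± 9.51 TPM. Its partner Kcnj10 was at 8.88 ± 1.14 and 16.9 ± 0.54 TPM, with an adjusted p of 0.00319 by limma at a difference of -0.86, under the threshold of 1.

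The sodium pump list had 13 tested members, with 1 higher in the CTAL and 2 in the DCT (median 0.02). The CTAL gene was the beta subunit gene Atp1b2, at 3.12 ± 0.886 against 0.897 ± 0.312 TPM, which lost the call under 5 of the 25 alternatives, among them leaving out DCT mouse 2 (adjusted p 0.0633 by limma). Atp1b1, the gene of the main beta subunit, was not called, at 2326 ± 290 and 1898 ± 51.0 TPM. The regulatory subunit gene Fxyd2 was at 3714 to 5527 TPM in the CTAL and at 14349, 13132 and 13065 TPM in the DCT (-1.52, SE 0.18, adjusted p 3.94e-09 by limma). In the MTAL it reached 24305 ± 4385 TPM, a difference from the CTAL that was not tested here. Fxyd6 was also higher in the DCT, at 28.7 ± 3.84 against 5 ± 1.03 TPM.

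Claudins set the ion selectivity of the tight junction. Of 24 members tested, 5 were higher in the CTAL and 4 in the DCT (median 0.20). Cldn16, whose product is needed for magnesium and calcium reabsorption, was at 482, 508, 481, 494 and 444 TPM in CTAL mice 1 to 5 and at 6.46, 2.64 and 0.13 TPM in DCT mice 1 to 3. Its partner Cldn19 was at 390 ± 48.8 against 1.70 ± 1.72 TPM, and Cldn10, which forms the sodium pathway, at 742 ± 29.9 against 1.42 ± 1.73 TPM. The CTAL means were 157, 230 and 522 times the DCT means for Cldn16, Cldn19 and Cldn10. In the MTAL, Cldn16 was at 53.4 ± 40.0 TPM and Cldn10 at 1256 ± 114 TPM. Without the 3 DCT pieces with Slc12a1 above 30 TPM, the log2 difference was 8.83 in place of 7.45 for Cldn16, 8.14 in place of 7.38 for Cldn19 and 9.01 in place of 8.54 for Cldn10.

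The claudins higher in the DCT differed widely in level. Cldn8 was the most abundant, at 821, 767 and 849 TPM in the DCT and 291 to 343 TPM in the CTAL (-1.37, SE 0.26, adjusted p 0.000148 by limma), and in the connecting tubule (CNT, 3 mice) it was at 1124 ± 101 TPM. Cldn4 was at 19.7 ± 2.26 TPM in the DCT and at most 0.05 TPM in a CTAL mouse. Cldn9 and Cldn6 were at 9.19 ± 3.26 and 8.28 ± 1.69 TPM in the DCT. Cldn7 and Cldn3 were not called, at 175 ± 16.1 and 57.6 ± 9.58 TPM in the CTAL and 211 ± 4.57 and 33.5 ± 4.52 TPM in the DCT. Cldn14, which opposes Cldn16 and responds to the calcium receptor, was called at 4.97 ± 6.05 TPM in the CTAL, where the mice ranged from 0.91 to 14.9 TPM, against 0.348 ± 0.126 TPM in the DCT (1.62, SE 0.50, adjusted p 0.0316 by limma). That call was lost without CTAL mouse 1 (1.12, adjusted p 0.18 by limma) or 3 (1.39, adjusted p 0.109), and without DCT mouse 1, 2 or 3 (adjusted p 0.12, 0.0955 and 0.0982).

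Magnesium and calcium handling was the list with the largest number of genes higher in the DCT, 15 of 31 tested, with 3 higher in the CTAL and a median difference of -0.38. Of its 24 members at 10 TPM or more in either segment, 13 were higher in the DCT and 3 in the CTAL, against 5.02% and 5.98% of all such genes. On the calcium side, the apical channel gene Trpv5 was at 124, 178 and 168 TPM in the DCT mice and at most 0.075 TPM in a CTAL mouse. The binding protein calbindin-D28k, encoded by Calb1, was at 5125, 8856 and 7794 TPM against 0.135 to 0.735 TPM. Calbindin-D9k, encoded by S100g, was at 26967, 37366 and 31728 TPM against 30.5 to 42.8 TPM, and was the second most abundant transcript of the DCT. The basolateral exchanger gene Slc8a1 was at 133, 190 and 196 TPM against 0.08 to 0.17 TPM. For these 4 genes the segments were separated by 7.24 to 12.38 log2 units. The calcium pump genes differed among themselves. Atp2b4 was at 6.82 ± 0.20 TPM in the DCT and 0.70 ± 0.12 TPM in the CTAL (-2.20, SE 0.21, adjusted p 1.78e-11 by limma), whereas Atp2b1 was at 43.8 ± 2.06 and 51.2 ± 5.06 TPM and was not called.

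On the magnesium side, Trpm6, the apical magnesium channel gene, was at 63.1, 69.6 and 75.8 TPM in the DCT and 0.06 to 0.275 TPM in the CTAL (-5.93, SE 0.20, adjusted p 1.06e-26 by limma). The related Trpm7 was at 126 ± 31.4 against 21.9 ± 2.93 TPM, and Cnnm2, which encodes a basolateral protein mutated in familial hypomagnesaemia, at 122 ± 15.3 against 9.81 ± 0.37 TPM. Slc41a3 was at 51.2 ± 5.38 against 1.73 ± 0.16 TPM. Parvalbumin, encoded by Pvalb and known as a marker of the early DCT, was at 505, 335 and 456 TPM in the DCT mice and 0 to 0.08 TPM in the CTAL mice. Trpm6, Trpm7 and Cnnm2 were at 1.75 ± 0.26, 28.6 ± 1.33 and 10.6 ± 0.705 TPM in the CNT, while Slc41a3 was at 38.9 ± 5.64 TPM there.

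Receptors and regulators of this list did not all move with the channels. Kl, the gene of klotho, was at 1749, 2252 and 2267 TPM in the DCT and 210 to 256 TPM in the CTAL (-3.15, SE 0.32, adjusted p 1.24e-10 by limma). Vdr, the vitamin D receptor gene, was at 474 ± 64.3 against 96.9 ± 10.3 TPM. Casr, the calcium-sensing receptor gene, went the other way, at 225 ± 13.5 TPM in the CTAL and 44.1 ± 8.87 TPM in the DCT (2.34, SE 0.17, adjusted p 6.58e-15 by limma). The parathyroid hormone receptor gene Pth1r was at 486 to 723 TPM in the CTAL and 495, 701 and 511 TPM in the DCT. Those ranges overlap, and the difference was 0.07 (SE 0.29, adjusted p 1 by limma). In the segments on either side Pth1r was low, at 5.21 ± 3.80 TPM in the MTAL and 24.3 ± 1.53 TPM in the CNT.

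**Figure D3:**
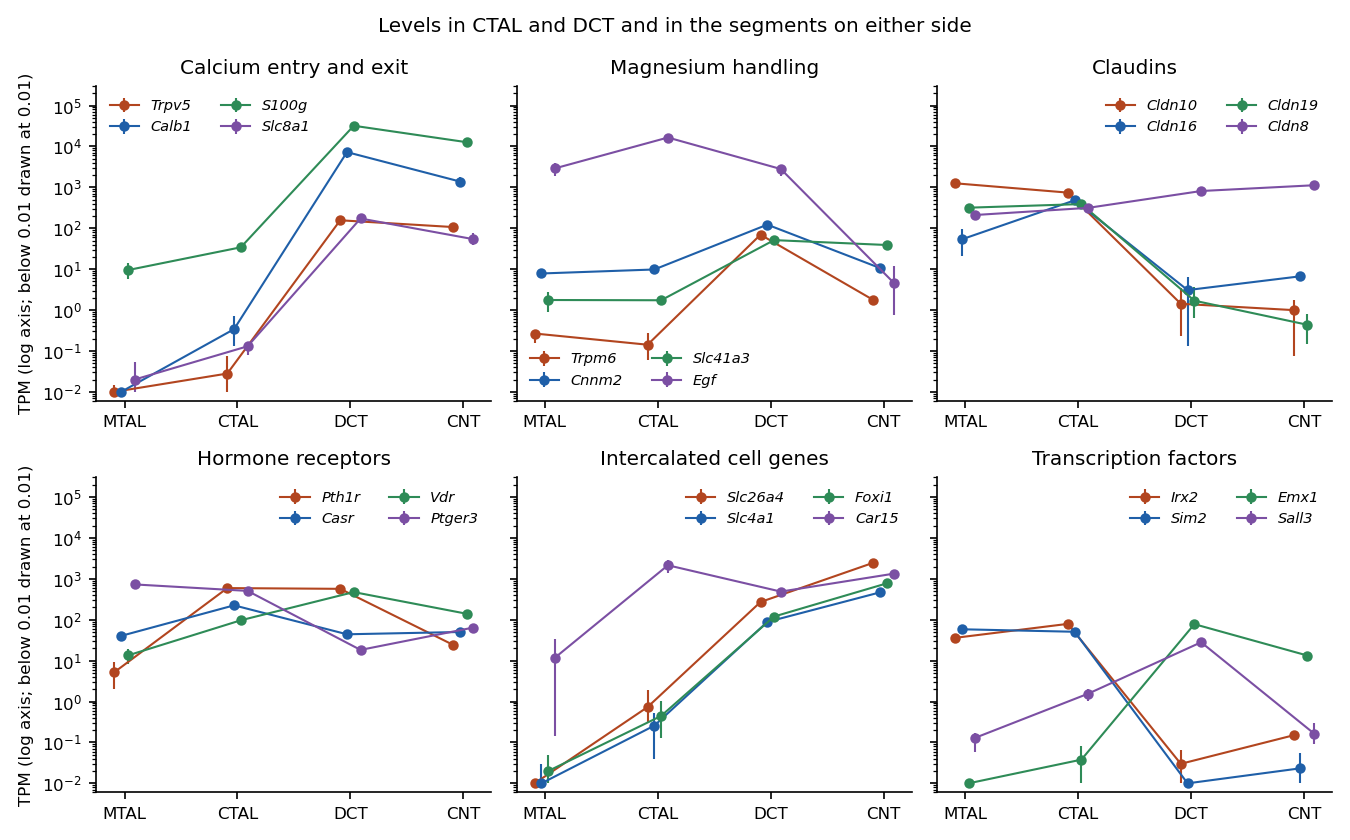
Mean TPM on a log axis of 24 genes in 6 groups along MTAL (3 mice), CTAL (5), DCT (3) and CNT (3), with bars from the lowest to the highest mouse and values below 0.01 drawn at 0.01. Pth1r is level between CTAL and DCT, at 594 and 569 TPM, and lower on both sides, whereas Trpm6 peaks in the DCT at 69.5 TPM and Slc26a4 goes on rising to 2475 TPM in the CNT.

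The secreted thick limb products Umod and Egf were counted with this list and were higher in the CTAL. Umod, the gene of uromodulin, the commonest protein of normal urine, was at 34039 to 38232 TPM in the CTAL and at 2173, 1360 and 1890 TPM in the DCT (4.39, SE 0.38, adjusted p 1.21e-12 by limma). Egf, which encodes the precursor of the magnesium-regulating epidermal growth factor, was at 14101 to 19386 TPM and at 3611, 1912 and 2878 TPM (2.61, SE 0.36, adjusted p 2.48e-07 by limma). These 2 transcripts did not follow Slc12a1 through the DCT pieces. In the 3 pieces with Slc12a1 at 0.23, 2.03 and 0.55 TPM, Umod was at 1382, 2288 and 1493 TPM and Egf at 2034, 3616 and 2140 TPM. The Umod level divided by the Slc12a1 level was 4.75 to 7.12 in the 8 CTAL pieces. It was 6009, 1127 and 2715 in those 3 DCT pieces, where the low Slc12a1 level sets the size of the ratio. In the 3 DCT pieces with Slc12a1 above 30 TPM the ratio was 36.4, 25.2 and 35.2, with Umod at 2291, 2055 and 1337 TPM. Without those 3 pieces the difference of Umod was 4.53 and that of Egf 2.78, both still called. Egf was at 4.63 ± 6.39 TPM in the CNT and Umod at 140 ± 36.8 TPM.

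Of the 13 genes of the aldosterone response and the epithelial sodium channel, 4 were higher in the DCT and 1 in the CTAL (median -0.67). The channel subunit genes Scnn1b and Scnn1g were at 307 ± 25.3 and 344 ± 21.8 TPM in the DCT and at 0.553 ± 0.126 and 0.344 ± 0.127 TPM in the CTAL. The remaining subunit gene, Scnn1a, was not called, at 156 ± 17.6 TPM in the CTAL and 220 ± 13.1 TPM in the DCT (adjusted p 0.322 by limma). Hsd11b2, the enzyme gene that shields the mineralocorticoid receptor from glucocorticoids, was at 286, 277 and 271 TPM in the DCT and 1.67 to 3.21 TPM in the CTAL (-6.32, SE 0.20, adjusted p 1.07e-27 by limma). The receptor gene itself, Nr3c2, was at 25.6 ± 1.26 and 16 ± 2.76 TPM and was not called, and the glucocorticoid receptor gene Nr3c1 was higher in the CTAL, at 39.4 ± 7.53 against 11.4 ± 2.76 TPM (1.72, SE 0.18, adjusted p 4.29e-10 by limma). Klk1, the gene of tissue kallikrein and the most abundant transcript of the DCT, was at 48966 ± 5776 TPM there and 9245 ± 1307 TPM in the CTAL. Its family has close copies that can share reads.

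Markers of other cells moved with these results. The list of connecting tubule and principal cell markers, 8 of 11 of which were higher in the DCT, summed to 83.8 to 128 TPM in the CTAL mice and 28293 to 38846 TPM in the DCT mice. S100g, which the DCT is itself known to express, makes up most of that sum. The collecting duct water channel genes Aqp2 and Aqp3 were at 119 ± 28.9 and 78.7 ± 2.82 TPM in the DCT, which is 1.92% and 3.38% of their CNT levels. Scnn1b and Scnn1g were at 26.7% and 36.2% of their CNT levels, and Hsd11b2 at 8.30%. Trpv5, S100g and Calb1 were at 146%, 253% and 524% of the CNT level, differences that were not tested. The part of neighbouring cells in the sodium channel result was not tested. In such bulk samples, fewer cells of a type and less RNA per cell cannot be told apart.

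Of 12 intercalated cell markers, 10 were higher in the DCT and 1 in the CTAL. Slc26a4, the gene of the chloride bicarbonate exchanger pendrin, was at 283, 292 and 239 TPM in the DCT and 0.32 to 1.88 TPM in the CTAL (-7.28, SE 0.33, adjusted p 3.69e-22 by limma). Among single DCT pieces it ranged from 123 to 354 TPM, so it was found in all 6. Slc4a1, the anion exchanger gene of acid-secreting cells, was at 88.3 ± 10.4 against 0.258 ± 0.182 TPM, Slc4a9 at 119 ± 15.1 against 1.24 ± 0.46 TPM, and Foxi1, the transcription factor gene of intercalated cells, at 120 ± 14.5 against 0.445 ± 0.349 TPM. The 10 markers of this list that were higher in the DCT than in the CTAL stood there at 6.72% (Hmx2) to 22.4% (Atp6v1c2) of their CNT levels.

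Car15 was the exception in this list, since it was higher in the CTAL. This gene of a membrane carbonic anhydrase was at 1388 to 2812 TPM in the CTAL mice and at 543, 512 and 406 TPM in the DCT mice (2.17, SE 0.53, adjusted p 0.00333 by limma), with 11.8 ± 19.8 TPM in the MTAL. It makes the summed list overlap between the segments, at 1537 to 2983 TPM in the CTAL and 1653 to 1903 TPM in the DCT. Without Car15 the other 11 markers summed to 149 to 240 TPM in the CTAL, 1247 to 1391 TPM in the DCT and 8295 to 9003 TPM in the CNT. Most of the CTAL sum came from the proton pump gene Atp6v1b1, which was at 173 ± 37.9 TPM in the CTAL and 184 ± 17.5 TPM in the DCT and was not called.

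The wider acid and base list had 35 tested members, 6 higher in the CTAL and 9 in the DCT (median -0.04). Of these calls, that of Car8 (-1.14, adjusted p 0.0436 by limma) was lost under 14 of the 25 alternatives, including the omission of any 1 mouse (adjusted p 0.0557 to 0.165), and that of Slc26a7 (1.07, adjusted p 0.00901 by limma) under 5, including the omission of CTAL mouse 5 or DCT mouse 1. Slc9a3, the apical sodium proton exchanger gene NHE3, was at 143 to 196 TPM in the CTAL and 2.98, 0.54 and 0 TPM in the DCT (6.64, SE 0.30, adjusted p 1.72e-22 by limma, and 7.43 without the 3 DCT pieces rich in Slc12a1). Another exchanger gene, Slc9a2, was at 40.6 ± 3.97 and 40.8 ± 0.57 TPM and was not called. Car4, a membrane carbonic anhydrase gene, was at 413 ± 29.0 against 9.67 ± 4.86 TPM, and Slc4a11 at 57.5 ± 25.1 against 0.162 ± 0.096 TPM. The ammonia carrier genes were on the DCT side, Rhcg at 875, 948 and 890 TPM against 1.12 to 1.72 TPM and Rhbg at 362 ± 27.7 against 0.673 ± 0.210 TPM. In the CNT they were at 3187 ± 320 and 1457 ± 118 TPM.

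Of the 9 genes listed as thick limb markers, 7 were higher in the CTAL and Kcnj1 was not called. Enpep, an aminopeptidase gene, was higher in the DCT, at 23.1 ± 2.23 against 3.64 ± 1.05 TPM (-2.41, SE 0.21, adjusted p 1.3e-12 by limma). By these levels Enpep did not mark the CTAL here. The list summed to 43475 to 49012 TPM in the CTAL mice and 3299 to 4132 TPM in the DCT mice, mostly Umod in the CTAL. Markers of the remaining cell types were summed likewise. Proximal tubule markers summed to 191 to 659 TPM in the CTAL mice and 2849, 1070 and 1045 TPM in the DCT mice, against a mean of 89471 TPM in the S2 segment of the proximal tubule. Gpx3, a secreted glutathione peroxidase gene, made up most of the DCT sum, at 2298, 1034 and 999.9 TPM. The mouse 1 values rest on its piece b, where the sum was 4448 TPM and Gpx3 was at 3491 TPM, against 1106 TPM of Gpx3 in piece a, and without piece b the Gpx3 difference was -4.49 in place of -4.77. In the opposite direction, Kap, Fbp1, Slc27a2, Napsa and Slc7a13 were higher in the CTAL. The Kap call, at 201 ± 124 against 27.3 ± 19.5 TPM (2.80, SE 0.91, adjusted p 0.0478 by limma), was lost under 13 of the 25 alternatives, that of Slc7a13 under 11 and that of Napsa under 7. Only 2 of these 5 genes were called in the CTAL direction without CTAL mouse 1 or 2 or without DCT mouse 2 or 3. In the fit of CTAL and DCT alone, the calls of Fbp1 (adjusted p 0.0887), Slc27a2 (0.0588) and Slc7a13 (0.0746) were lost. Without the 3 DCT pieces rich in Slc12a1, the differences of Fbp1, Slc27a2 and Kap were 3.98, 3.52 and 3.53 in place of 2.69, 2.41 and 2.80. Fbp1, Slc27a2 and Slc7a13 overlapped between the mice of the segments, and Fbp1 was at 54.8 TPM in DCT mouse 1. Slc34a1 was not called (0.44, SE 0.69, adjusted p 1 by limma), but was higher in the CTAL by 2.43 (adjusted p 0.00876) without the 3 DCT pieces named above. Leukocyte markers summed to 922 to 1967 TPM in the CTAL and 481 to 745 TPM in the DCT, with a median log2 difference of 1.16. Only Trac, at 4.87 ± 1.57 against 1.76 ± 0.135 TPM, was called of the 16, and it lost the call under 12 of the 25 alternatives. In the fit of CTAL and DCT alone 12 of the 16 were called, with distal segments only 8, and with array weights 13, all higher in the CTAL. Endothelial markers summed to 444 to 844 and 243 to 591 TPM, with 1 of 13 called. That gene, Esam, was at 181 ± 38.2 against 17.6 ± 8.36 TPM, while the defining gene Pecam1 was at 20 ± 5.22 and 17.5 ± 7.75 TPM. Stroma and muscle markers summed to 15.1 to 53.1 and 5.7 to 17 TPM. Of the 12 tested, Col3a1 and Col1a2 were higher in the CTAL, at 8.46 ± 5.44 and 3.34 ± 1.94 TPM against 1.22 ± 1.34 and 0.468 ± 0.342 TPM, and neither was called without CTAL mouse 1, DCT mouse 2 or DCT mouse 3. Erythroid markers summed to 0.145 to 78.4 and 0.145 to 0.46 TPM, with the haemoglobin genes Hbb-bs and Hba-a1 of 5 called higher in the CTAL, though not in the fit of CTAL and DCT alone. Thin limb markers summed to 486 to 561 and 218 to 236 TPM, with 1 of 8 called in each direction. The podocyte gene Nphs1 was listed at 0 in every CTAL and DCT piece, and no podocyte marker was called by limma (0 of 7, also at an unadjusted p under 0.05). Of 6 macula densa markers only Avpr1a was called, in the DCT direction, and the defining gene Nos1 was at 0.092 ± 0.129 TPM in the CTAL and 0.172 ± 0.0437 TPM in the DCT.

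**Figure D4:**
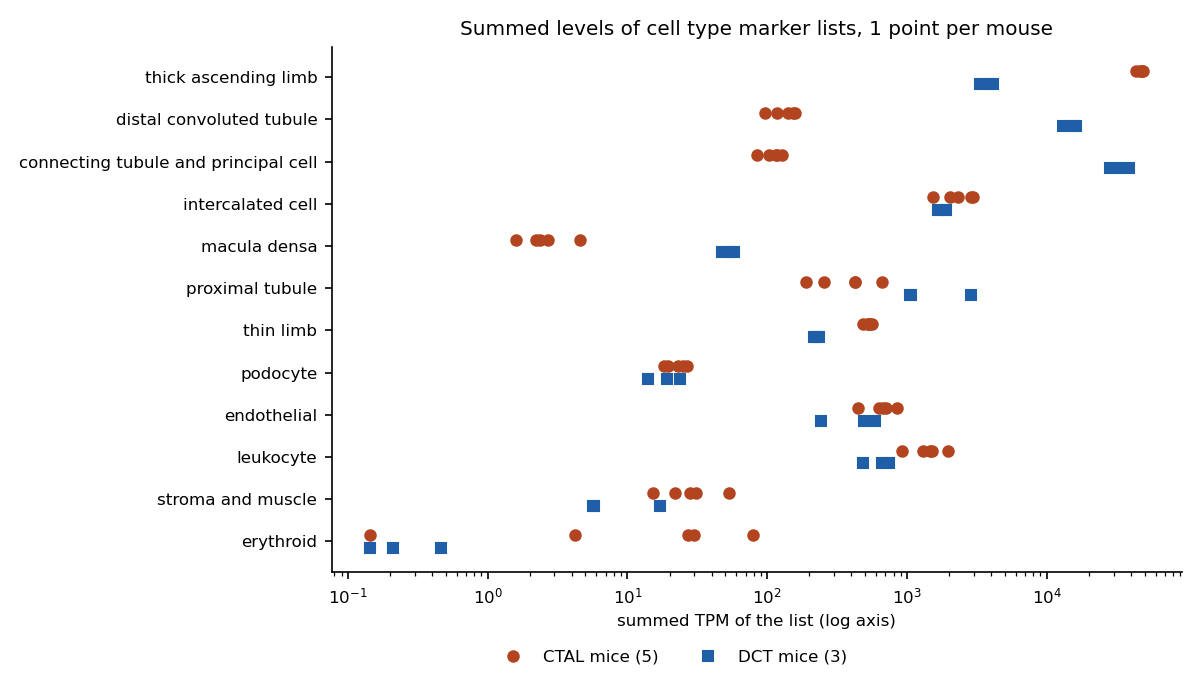
Summed TPM of 12 cell type marker lists on a log axis, 1 point per mouse, for CTAL (red circles, 5 mice) and DCT (blue squares, 3 mice). The mice of the segments do not overlap for 7 lists (thick limb, DCT, connecting tubule, macula densa, proximal tubule, thin limb and leukocyte), and overlap for the other 5, the intercalated list among them, at 1537 to 2983 and 1653 to 1903 TPM. Of single genes with at least 10 TPM in either segment, 51.2% likewise did not overlap. The DCT sum of the macula densa list is mostly Avpr1a, since 5 of its 6 members had a DCT mean below 1 TPM.

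Hormone and paracrine receptors were called 15 times among 43 tested, 10 higher in the CTAL and 5 in the DCT (median 0.32). At 10 TPM or more in either segment were 24 of them, 7 higher in the CTAL and 4 in the DCT. The shares of all such genes were 5.98% and 5.02%. Ptger3, a receptor gene for prostaglandin E2, was at 412 to 563 TPM in the CTAL and 20, 14.7 and 20.1 TPM in the DCT (4.75, SE 0.26, adjusted p 1.84e-19 by limma). Gcgr, the glucagon receptor gene, was at 440 to 510 TPM against 182, 151 and 146 TPM (1.63, SE 0.23, adjusted p 3.62e-07 by limma). Erbb4, P2ry2 and Fgfr4 were at 29.7 ± 5.89, 35.7 ± 9.69 and 12.2 ± 1.03 TPM in the CTAL and at most 3.06 TPM in any DCT mouse. On the DCT side, the vasopressin receptor gene Avpr1a was at 52.2 ± 4.99 against 0.533 ± 0.331 TPM. The 6 macula densa markers, Avpr1a among them, summed to 52.9 ± 4.91 TPM in the DCT and to 304 ± 20.3 TPM in the CNT. Avpr2, through which vasopressin stimulates the thick limb and the collecting duct, was not called, at 61.7 ± 13.8 and 41.6 ± 7.31 TPM.

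Of 20 genes that make or break down cyclic nucleotides, 2 were higher in the CTAL and 1 in the DCT (median 0.04). Pde1a was at 530 ± 81.0 against 98.9 ± 13.2 TPM (2.42, SE 0.29, adjusted p 6.77e-09 by limma) and Pde3b at 0.905 ± 0.127 against 23.4 ± 1.67 TPM (-3.68, SE 0.20, adjusted p 4.32e-19 by limma). Pde9a was called at 29.5 ± 4.73 against 12 ± 2.4 TPM (adjusted p 0.0292 by limma), but not without CTAL mouse 2, 4 or 5 (adjusted p 0.0568, 0.0589 and 0.0588) or DCT mouse 1, 2 or 3 (0.0903, 0.168 and 0.0573). Adcy6, a calcium-inhibited adenylyl cyclase gene, was at 17.6 ± 2.32 and 17.4 ± 1.38 TPM.

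Transcription factors were called in both directions. Of 57 tested, 10 were higher in the CTAL and 12 in the DCT (median 0.23). Among the 38 at 10 TPM or more in either segment, 8 were higher in the CTAL and 11 in the DCT. The shares of all such genes were 5.98% and 5.02%. The Iroquois genes Irx2, Irx1 and Irx3 were on the CTAL side. Irx2 was at 69.0 to 87.7 TPM in the CTAL and at most 0.065 TPM in a DCT mouse (6.28, SE 0.21, adjusted p 3.83e-27 by limma). Irx3 was at 18.9 ± 4.78 against 1.53 ± 0.99 TPM, and Irx1 was at 6.03 to 9.58 TPM in the CTAL and listed at 0 in all 6 DCT pieces. Sim2 was likewise at 47.9 to 53.6 TPM in the CTAL and listed at 0 in all DCT pieces. In the MTAL, Irx2 was at 36.0 ± 4.43 and Sim2 at 58.4 ± 12.2 TPM. The nuclear receptor gene Nr2f2 was at 65.2 ± 3.21 against 17.1 ± 4.14 TPM.

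On the DCT side stood Emx1, at 86.2, 73.0 and 74.7 TPM against at most 0.08 TPM in a CTAL mouse (-6.24, SE 0.23, adjusted p 2.06e-25 by limma). Lhx1 was at 60.7 ± 14.3 against 0.144 ± 0.092 TPM, with the limit given above for its opposite transcript. Tbx2 was at 88.6 ± 4.88, Gata3 at 50.7 ± 1.45 and Sall3 at 28.1 ± 2.10 TPM in the DCT, and at 0.966 ± 0.177, 0.119 ± 0.050 and 1.56 ± 0.38 TPM in the CTAL. In the CNT, Tbx2 and Gata3 were at 166 ± 10.0 and 94.3 ± 1.11 TPM, and Sall3 was at 0.165 ± 0.117 TPM. Several factors known for distal nephron identity were not called. Esrrg was at 57.5 ± 5.78 and 70.6 ± 1.74 TPM, Mecom at 117 ± 11.4 and 114 ± 9.04 TPM, and Prox1 at 7.76 ± 1.62 and 9.62 ± 3.91 TPM. Tfap2b, at 75.1 ± 9.18 and 42.7 ± 6.30 TPM, had an adjusted p of 0.0435 by limma at a difference of 0.80, under the threshold of 1.

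Secreted and luminal proteins were called mostly in the CTAL direction, 15 of 47 tested, with 5 in the DCT direction (median 0.24). Of the 27 members at 10 TPM or more in either segment, 13 were higher in the CTAL and 5 in the DCT. The shares of all such genes were 5.98% and 5.02%. Pcsk6, a proprotein convertase gene, was at 88.2 to 138 TPM in the CTAL and at most 0.115 TPM in a DCT mouse (6.76, SE 0.38, adjusted p 7.56e-19 by limma). Bmp4, a growth factor gene of the BMP family, was at 94.9 ± 5.35 against 1.97 ± 0.76 TPM (5.05, SE 0.39, adjusted p 3.84e-14 by limma). Wnt7b was at 18.0 ± 3.24 against 0.070 ± 0.053 TPM, Fgf1 at 131 ± 14.1 against 16.1 ± 1.36 TPM, and Fgf9 at 164 ± 60.7 against 58.5 ± 14.5 TPM. Wfdc15b, a protease inhibitor gene among the 10 most abundant transcripts of the CTAL, was at 10330 ± 457 against 1889 ± 586 TPM. In the DCT direction, beside Clu and Klk1, the defensin gene Defb1 was at 4110 ± 624 against 370 ± 50.9 TPM (-3.47, SE 0.34, adjusted p 3.2e-11 by limma). Sfrp1, a Wnt antagonist gene, was at 706, 759 and 828 TPM in the DCT and 217 to 375 TPM in the CTAL, with 1.80 ± 1.59 TPM in the MTAL and 1.53 ± 0.165 TPM in the CNT. Spp1, the osteopontin gene, was not called, at 6097 ± 248 and 11873 ± 1680 TPM (adjusted p 0.426 by limma).

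Of 32 carriers for glucose, phosphate and organic solutes, 7 were higher in the CTAL and 3 in the DCT (median 0.15). Slc5a1, the sodium glucose cotransporter gene SGLT1, was at 312 to 447 TPM in the CTAL and 5.76, 1.98 and 0.18 TPM in the DCT (7.19, SE 0.30, adjusted p 1.6e-23 by limma, and 8.43 without the 3 DCT pieces rich in Slc12a1). Slc34a2, a phosphate cotransporter gene, was at 23.4 to 36.3 TPM against at most 0.195 TPM in a DCT mouse, and at 1.17 ± 0.90 TPM in the MTAL. Slc5a3, which takes up the osmolyte inositol, was at 123 ± 30.3 against 27.0 ± 2.62 TPM (2.12, SE 0.33, adjusted p 2.97e-06 by limma). The urate carrier gene Slc2a9 was higher in the DCT, at 25.3 ± 3.43 against 0.192 ± 0.139 TPM (-4.45, SE 0.46, adjusted p 1.81e-10 by limma).

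Among genes of energy metabolism, no gene of the tricarboxylic acid cycle was called by limma (0 of 21, with 5 at an unadjusted p under 0.05, of which Suclg1 and Idh2 also had an adjusted p under 0.05), at a median difference of 0.14, and 2 of 23 glycolytic genes were, Aldoc and Pfkl, both higher in the CTAL (median 0.04). Pfkl, a phosphofructokinase gene, was at 182 ± 25.2 against 71.6 ± 3.30 TPM. Of 22 genes of fatty acid oxidation, 4 were higher in the CTAL and 2 in the DCT (median 0.48). Cpt1b, the muscle-type carnitine palmitoyltransferase gene, was at 290 ± 23.1 against 114 ± 12.3 TPM and Acsl1 at 336 ± 65.5 against 133 ± 23.1 TPM. On the other side, Ucp2, an uncoupling protein gene, was at 640 ± 26.8 TPM in the DCT and 115 ± 7.28 TPM in the CTAL, and Hadh at 528 ± 8.79 and 236 ± 15.7 TPM. Ckb, the brain-type creatine kinase gene, was higher in the CTAL, at 2151 ± 556 against 751 ± 142 TPM (1.5, SE 0.36, adjusted p 0.00328 by limma). Of the mitochondrial genome's 13 protein genes, 7 passed the filter and 0 were called by limma (0 also at an unadjusted p under 0.05), while the other 6 were listed at 0 in all pieces. The most abundant, mt-Cytb, was at 16079 ± 1193 and 16286 ± 576 TPM.

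Among 27 adhesion genes, 4 were higher in the CTAL and 1 in the DCT (median 0.23). Itgb6, an integrin gene whose product activates TGF-beta, was at 315 ± 57 against 37.4 ± 4.38 TPM, and the cadherin gene Cdh6 at 16.6 ± 1.51 against 0.43 ± 0.19 TPM. The keratin gene Krt18 was higher in the DCT, at 65.7 ± 2.58 against 13.6 ± 3.65 TPM. Of 17 cilium and cyst genes, 2 were higher in the CTAL, Umod and Dzip1l, and Pkd1 and Pkd2 were not called. Early-response genes, which are known to respond to tissue handling, were called in 4 of 25 cases, with Ier3, Nr4a1 and Btg2 higher in the DCT and Myc higher in the CTAL. At 10 TPM or more in either segment were 14 of them, 0 higher in the CTAL and 3 in the DCT. The shares of all such genes were 5.98% and 5.02%. The list summed to 443 to 615 TPM in the CTAL mice and 1023 to 1923 TPM in the DCT mice. Fos was not called, at 2.87 to 46.5 TPM in the CTAL mice and 39.5, 52.3 and 232 TPM in the DCT mice. Its highest piece was in DCT mouse 3, at 345 TPM. With array weights, Fos (-2.55, adjusted p 0.00183 by limma) and Egr1 (-1.40, adjusted p 0.0489 by limma) were called higher in the DCT. The Btg2 call, at -1.91 (adjusted p 0.0159 by limma), was lost without DCT mouse 2 or 3, at adjusted p of 0.0591 and 0.177.

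**Figure D5:**
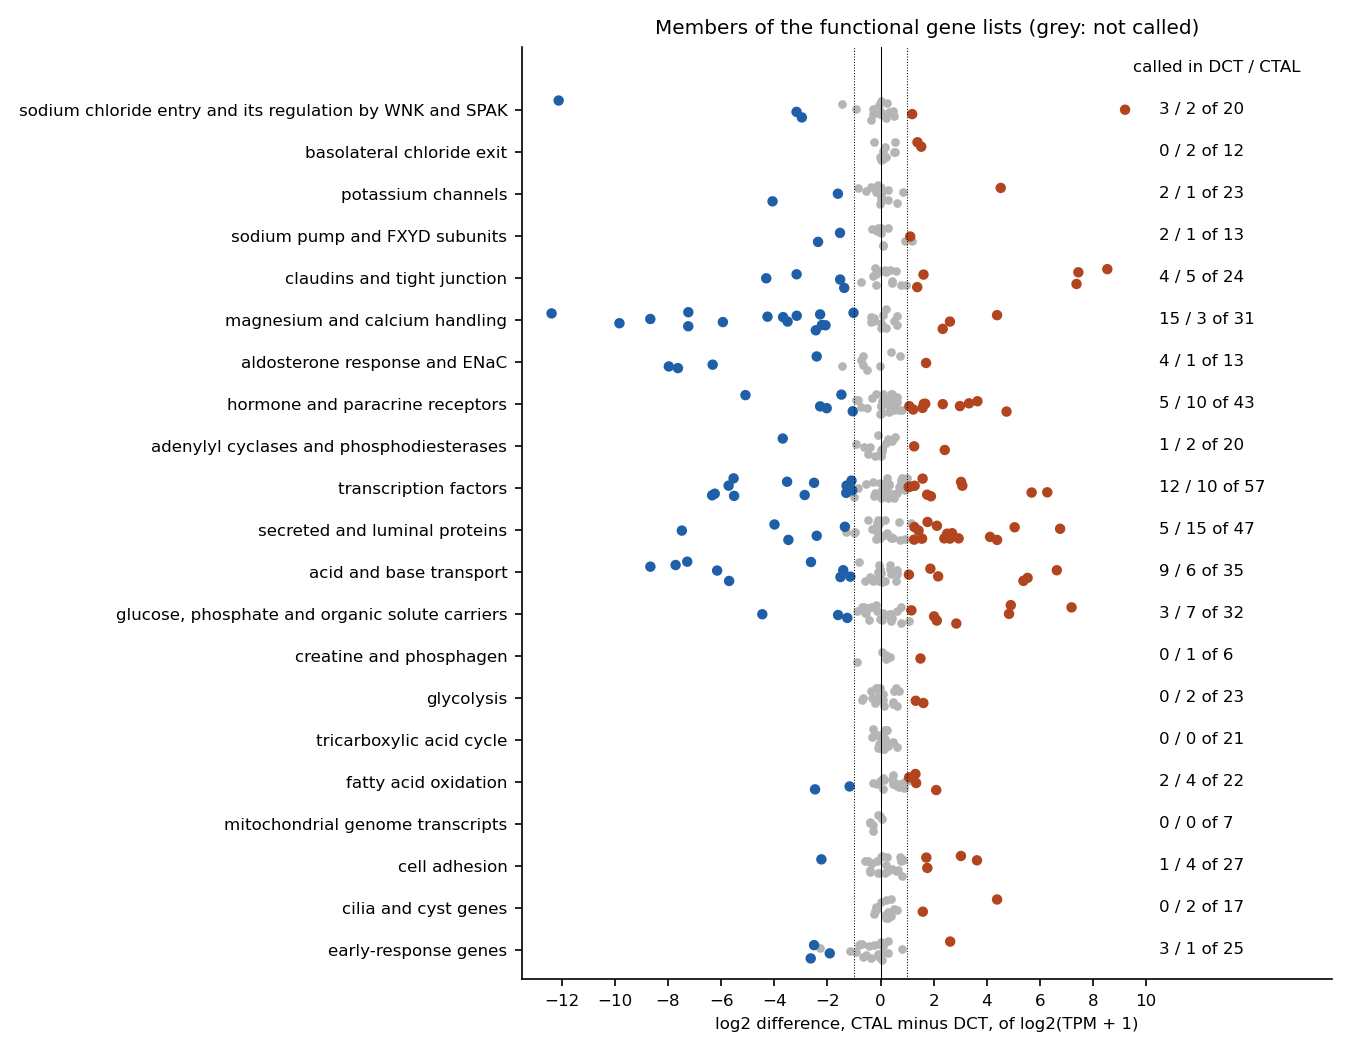
Log2 difference (CTAL minus DCT) of each tested member of the 21 functional gene lists, with called genes in red (higher in CTAL) and blue (higher in DCT), grey points for genes not called, dotted lines at differences of -1 and 1, and the counts at the right. Magnesium and calcium handling has 15 called genes to the left, secreted proteins 15 to the right, and the tricarboxylic acid cycle none.

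The means of the called genes with at least 10 TPM were also set beside those of the adjoining segments. Of the 423 higher in the DCT, 196 (46.3%) had a CNT mean above the DCT mean and 138 (32.6%) had one at least 2 times below it, against 73.9% and 5.49% of all 8428 genes at that level. Of the 504 higher in the CTAL, 166 (32.9%) had an MTAL mean above the CTAL mean, against 37.6% of all such genes, and 138 (27.4%) had one at least 2 times below it, against 8.23%. These are counts of means, with no test, and choosing genes for a high level in 1 segment itself lowers the chance of a higher mean in the next. Among the 15 leading DCT genes, 6 had a higher mean in the CNT, namely Rhcg, Scnn1g, Rhbg, Scnn1b, Slc26a4 and Atp6v1g3. Among the 15 leading CTAL genes, 5 had a higher mean in the MTAL, namely Cldn10, Nccrp1, Pcsk6, Egfl6 and Sim2.

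The genes whose pattern was most like that of each cotransporter were found by Pearson's r of log2(TPM + 1) over the 15 segment means, as a description. Closest to Slc12a1 were Tmem207 (r = 0.98), Nacad (0.96), Pla1a (0.95), Klk1b21 (0.94), Lmo1 (0.94), Pdilt (0.93), Kcnt1 (0.93), Tarm1 (0.91), Spink4 (0.91) and Gpx6 (0.91). Closest to Slc12a3 were Pvalb (0.96), Gulo (0.95), Lhfpl1 (0.94), Sall3 (0.89), Lrrc52 (0.87), Klhl3 (0.83), Batf3 (0.83), Maob (0.82), Cnnm2 (0.81) and Trpm7 (0.81). The levels of the genes compared come from the same libraries. Klk1b21 belongs to the kallikrein family, whose copies can share reads. Maob, which encodes monoamine oxidase B, was at 57 TPM in the DCT and 0.044 TPM in the CTAL. Lmo1, a transcriptional cofactor gene, was at 32.1 TPM in the CTAL, 32.5 TPM in the MTAL and 0.535 TPM in the DCT.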

How the data were processed

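The authors deposited TPM, abundances scaled by transcript length and library, for 54532 genes in each of 93 microdissected samples. A column of the proximal S2 segment matched no sample title and was placed by its segment name alone. Per the submitters' processing notes, STAR 2.5.4a and RSEM 1.3.0 were among the tools, and the genome build, annotation and strand handling are not given in the sources used here. TPM keep no read depth. Another 3 samples, of single cells, were not analysed here.

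Log2(TPM + 1) was averaged over the pieces of 1 mouse, and genes with at least 1 TPM in at least 3 of the 53 mice were kept (33793). limma 3.58.1 in R 4.3.3, with a mean-variance trend, was fitted to all 15 groups, so the spread is shared between segments, and p-values were adjusted by Benjamini-Hochberg over all genes kept. Fold changes on this scale understate the change of low genes. The fit was also run on simulated data. There each gene had the same spread in every segment, so unequal spread between segments was not examined. Biotypes came from GENCODE M21, matched for 99.77% of identifiers.

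Named genes were Slc12a1 and Slc12a3, the 15 called genes with the largest difference in each direction (at least 10 TPM, mice not overlapping, unnamed and ribosomal genes passed over), members of 33 lists, and the 10 genes most like each cotransporter gene. The members and lists were chosen with earlier results of these data known. The Slc12a1 and proximal settings for DCT pieces were added after seeing the data. Results of a few genes are not reported here.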

Additional observations from a re-analysis of the deposited data

Results flagged for a closer look

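In 5 of 108 values examined, 1 of the 5 CTAL mice lay far from the other 4, by Dixon's ratio of the gap to the range (critical value 0.71). Chance alone would do this in about 1 in 20 such groups, and the 3 DCT mice were too few to examine. S100g was at 42.8 TPM in CTAL mouse 2, above 30.5 to 33.5 TPM in the others. Fbp1 was at 46.9 TPM in the same mouse, above 27.0 to 29.8 TPM. Gcgr was at 440 TPM in CTAL mouse 3, below 496 to 510 TPM. Bmp4 was at 104 TPM in CTAL mouse 1, above 91.4 to 93.7 TPM, and Pde9a was at 21.3 TPM in that mouse, below 29.5 to 32.6 TPM.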

How the results depend on the processing

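None of the 175 named differences that were called changed sign among the 25 alternatives, while 115 of the 423 that were not called did under at least 1, Pth1r, Mecom and Adcy6 among them. With a pseudocount of 5, 873 genes were called (469 higher in the CTAL, 404 in the DCT). The adjusted p alone gave 2658 (1616 and 1042), and a log2 difference of at least 2 gave 549 (273 and 276). Leaving out 1 mouse at a time gave 1301 to 1493 genes, 666 to 854 higher in the CTAL and 635 to 674 in the DCT. Without the 3 DCT pieces rich in Slc12a1, 1476 were called, and without piece b of DCT mouse 1, 1486. Of the 175, 60 lost the call at a log2 difference of at least 2, and 29 with a pseudocount of 5. A pseudocount of 0.1 lost 14, quantile normalization 12, and leaving out DCT mouse 2 or 3 lost 17 or 13. Among called list members without a note in the report, Rragd and Slc6a6 lost it under 7 alternatives and Dach1 and Esrrb under 5. Depth is unknown, so the precision of low values is too.

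The segments share replicate numbers. Deviations of same-numbered mice correlated at 0.05, -0.08 and 0.07 (r across genes), within the -0.14 to 0.10 of other pairs. With so few mice per segment, these correlations cannot decide whether equal numbers are the same animal. With the number as a replicate block, 1473 genes were called (790 and 683), of which 1395 were among the 1470. CTAL mouse 2 was closer in this measure to DCT mouse 3 than to DCT mouse 2.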
